A study of Mus musculus with 2 samples.

Results

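Monocyte-like phagocytes were the tumor mononuclear phagocytes (TMPs) with the largest share of transcripts from 4 genes of classical monocytes, Ly6c2, Plac8, Chil3 and Ccr2. They were chosen by the summed unique molecular identifiers (UMIs, 1 per captured transcript) of these genes divided by all UMIs of a cell, and the top 5% of 14351 pooled cells gave 718 members. Of these, 213 came from the Fcmr+/+ library and 505 from the Fcmr-/- library. The study sorted MerTk+ CD64+ TMPs from B16 melanomas, a transplanted mouse melanoma line, and sequenced the cells with droplet-based 3′ single-cell RNA sequencing. The hosts were C57Bl/6 mice that carried the Fcmr gene (Fcmr+/+) or lacked it in all cells (Fcmr-/-), and Fcmr encodes a receptor for the Fc part of IgM. There was 1 library per genotype, and the number of mice behind each is not given in the sources used here, so genotype and library cannot be told apart and no difference was tested.

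Classical monocytes leave the bone marrow through the chemokine receptor encoded by Ccr2, circulate with the surface glycoprotein Ly6C, and enter tumors, where they lose Ly6C and differentiate into macrophages or antigen-presenting cells. Interferon switches on a shared set of antiviral genes in such cells, and the class II major histocompatibility complex (MHC class II) displays peptides to CD4 T cells. A gate on MerTk and CD64 is built to enrich mature macrophages, so the cells described here had passed a selection for macrophage surface markers.

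The Fcmr+/+ library held 6392 cells with 131062107 UMIs and the Fcmr-/- library 8017 cells with 125802196 UMIs. Cells with 200 to 7000 detected genes and at most 30% mitochondrial UMIs were kept, which left 6352 and 7999 cells. The libraries shared 73 cell barcodes, of which 2 belonged to Fcmr+/+ members and 6 to Fcmr-/- members. Fcmr itself could not check the genotypes, because it had 0 UMIs in Fcmr+/+ members, 7 in the remaining Fcmr+/+ cells, 1 in Fcmr-/- members and 5 in the remaining Fcmr-/- cells.

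Members made up 3.35% of Fcmr+/+ cells (95% Clopper-Pearson interval 2.92 to 3.83) and 6.31% of Fcmr-/- cells (5.79 to 6.87). These intervals, and all others given here, cover counting error only. The Fcmr-/- library supplied 70.3% of the members, a share that was 64.1% when Ly6c2 was left out of the score. The score had no gap at the threshold: the last cell inside carried 2724.43 UMIs of the 4 genes per 1000000 and the first cell outside 2724.27, and the highest cell reached 21412.8.

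Members were shallower than the other cells. Their median was 8668 UMIs and 2500 genes per cell in Fcmr+/+, against 18361 UMIs and 3798 genes in the remaining cells of that library. In Fcmr-/- the medians were 8188 UMIs and 2360 genes, against 13389.5 UMIs and 3233 genes. Depth therefore moved with membership. For 9 gene lists (type I and type II interferon, MHC class I and II, monocyte, macrophage, lipid, lysosome and cell cycle) the counts were also taken against remaining cells drawn to the UMIs per cell of the members, and they are given where they differed by more than 1.5 times.

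The 4 genes of the score are given as a description, since they chose the cells. Levels throughout are UMIs per 1000000 summed UMIs of a group of cells (CPM). Plac8, which encodes a small cysteine-rich protein of myeloid cells, was the most abundant of them, at 2271 CPM in Fcmr+/+ members and 2199 in Fcmr-/- members, against 101 and 156 in the remaining cells. Ly6c2, which encodes Ly6C, stood at 687 and 1114 CPM in members, against 19.8 and 68.2. Its near-identical neighbour Ly6c1 had 1 and 12 UMIs in members, and how reads shared between the pair were counted was not examined. Chil3, a secreted chitinase-like protein, was at 891 and 466 CPM in members against 26.9 and 46.2, and Ccr2 at 751 and 613 CPM against 121 and 116. Among members, Ly6c2 was thus the higher in Fcmr-/- (log2 ratio of CPM + 1, 0.70) and Chil3 the higher in Fcmr+/+ (log2 ratio of Fcmr-/- to Fcmr+/+, -0.94), while Plac8 was nearly level (-0.05).

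Plac8 supplied the most UMIs of the 4 genes in 139 of 213 Fcmr+/+ members (65.3%) and in 319 of 505 Fcmr-/- members (63.2%). Ly6c2 led in 19 Fcmr+/+ members (8.92%) and in 119 Fcmr-/- members (23.6%), and Chil3 in 31 (14.6%) and 37 (7.33%). All 4 genes were detected in 66 Fcmr+/+ members and 209 Fcmr-/- members, 3 genes in 103 and 205, and 1 gene alone in 7 and 12. The rule used these values, and the member of median score held 36 UMIs of the 4 genes, so nothing is read from these counts.

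Every other gene was compared between members and remaining cells within each library. Of 6932 genes with a mean of at least 10 CPM over the 4 groups of cells, 174 were at least 2-fold higher in members of both libraries (2.51% of genes tested) and 188 at least 2-fold lower (2.71%). When libraries were scaled by their median ratio across genes instead of by total UMIs, the counts were 225 and 148, so that 60.3% rather than 48.1% of these genes were on the higher side. The median log2 ratio over all genes was -0.10 in Fcmr+/+ and -0.12 in Fcmr-/-, and the medians of gene lists below are to be read against it. No gene was past 2-fold in opposite directions in the libraries, and 5581 genes had the same sign in both. Because membership was decided on the same cells, these ratios describe the members and are not tests.

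**Figure D1:**
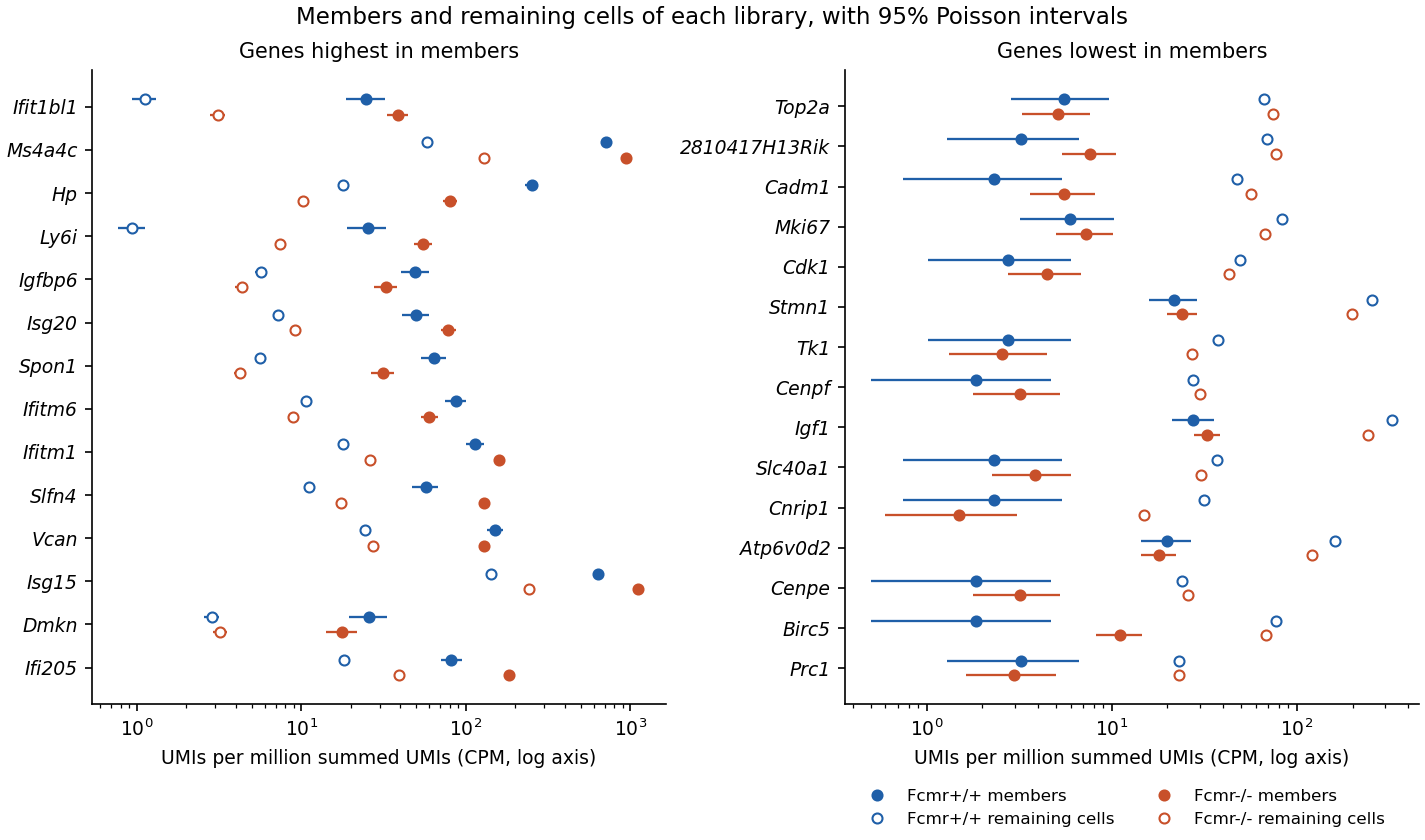
Level of genes among the 15 highest and of the 15 lowest in members, ranked by the weaker of the libraries, in CPM on a log axis. Filled points are members and open points remaining cells (blue Fcmr+/+, orange Fcmr-/-), with 95% Poisson intervals that cover counting error only; filled and open points of a library stand apart for each gene shown.

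The labelled identity was checked with 30 further genes of classical monocytes that were not in the score. Of the 27 that passed the filter, 12 were at least 2-fold higher in members of both libraries and 1 at least 2-fold lower, with a median log2 ratio of 1.03 in Fcmr+/+ and 0.75 in Fcmr-/-. Against remaining cells drawn to the depth of the members, 9 were past 2-fold higher and 0 lower. Of the 12, Ms4a4c and Ifitm3 are counted a second time below, among the type I interferon genes. Hp, the haemoglobin-binding acute-phase protein haptoglobin, was at 251 CPM in Fcmr+/+ members against 17.8, and at 80.4 against 10.3 in Fcmr-/- (3.74 and 2.85). Vcan, an extracellular matrix proteoglycan made by monocytes, was at 151 against 24.6 CPM and at 130.0 against 27.4 (2.57 and 2.21).

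Not every monocyte gene set the members apart. The calcium-binding protein gene S100a4 was higher in both libraries, at 2516 against 1042 CPM in Fcmr+/+ and 1827 against 812 in Fcmr-/- (1.27 and 1.17). F13a1, a coagulation factor subunit, differed by less than 2-fold (0.41 and 0.34), and so did Lyz2, the lysozyme of the whole myeloid lineage (-0.33 and -0.07). The granulocyte and early monocyte alarmins were scarce: S100a8 was at 9.67 and 14.5 CPM in members, below the remaining cells, and S100a9 had 0 UMIs in members of either library. Of 5 genes of nonclassical monocytes that passed the filter, 1 was at least 2-fold higher and 1 lower, and Cx3cr1, their chemokine receptor, was at 37.3 and 48.1 CPM in members against 23.4 and 32.7.

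The markers of the sort, and the profiling markers F4/80 and CD11b, did not separate the members from the other TMPs in the same way. Fcgr1, which encodes CD64, was at 641 CPM in Fcmr+/+ members against 244 and at 902 CPM in Fcmr-/- members against 374 (1.39 and 1.27). Mertk, the receptor for apoptotic cells, was at 68.1 against 62.7 CPM in Fcmr+/+ and at 33.8 against 49.3 in Fcmr-/- (0.12 and -0.53). Adgre1, which encodes F4/80, was lower by less than 2-fold (-0.71 and -0.58), and Itgam, which encodes CD11b, was higher by less than 2-fold (0.74 and 0.41).

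Genes of the type I interferon response formed the largest group on the higher side among the lists examined. Of 42 genes of this list that passed the filter, 35 were at least 2-fold higher in members of both libraries, 0 were at least 2-fold lower, and the median log2 ratios were 1.58 and 1.42. Their summed level was 13537 CPM in Fcmr+/+ members against 4574 in the remaining cells, and 18831 against 6492 in Fcmr-/-. Against remaining cells drawn to the depth of the members, 23 of 42 genes were past 2-fold and the medians were 1.13 and 1.18. With Plac8 left out of the score, 21 of 41 genes were past 2-fold with medians of 1.06 and 1.07, and with each cell thinned to 5000 UMIs, 32 were past 2-fold. The drawn cells are a smaller, shallower set of the remaining cells, so that comparison differs in its cells as well as in their depth, and the part of depth alone in the lower count was not tested by it.

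Among the effectors, Isg15, a ubiquitin-like modifier, was at 639 CPM in Fcmr+/+ members against 142 and at 1114 against 242 in Fcmr-/- (2.16 and 2.20). Rsad2, which encodes the antiviral enzyme viperin, was at 464 against 169 CPM and at 869 against 222 (1.45 and 1.96). Ms4a4c, a membrane protein gene of the interferon list, was at 710 against 58.5 CPM and at 943 against 129 (3.58 and 2.86). The chemokine gene Cxcl10, whose product draws in T cells, was at 341 against 148 CPM and at 664 against 260 (1.19 and 1.35). Among the regulators, Irf7, the transcription factor that amplifies type I interferon, was at 332 against 65.2 CPM and at 457 against 127 (2.33 and 1.84). Isg20, Slfn4 and Ifi205 of this list also belonged to the 15 genes highest in members.

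To show the sequences upstream of these genes, the 250 bases before annotated starts were read from RefSeq windows of GRCm38.p6. They were searched on both strands for GAAANNGAAA, the core letters of the interferon-stimulated response element (TTTCNNTTTC on the other strand), with overlapping matches counted separately. Of all 27025 genes with a window, 936 (3.46%) held at least 1 match. A gene with several starts was counted once, as matched if any of its windows held a match. No share is given for the 174 genes higher in members or for the interferon list, because only 79.3% and 73.8% of their genes could be paired with a window. Isg15 is printed whole because it was the most abundant gene of the interferon list with a match, Ly6c2 because it is a gene of the score without a match, and 7 further interferon genes higher in members are shown as 30 bases around a match. They were picked for having one, and other genes of the list had none, among them Isg20, Slfn4 and Ms4a4c. Capitals mark the matched letters, and a match is a description, not a binding site.
Isg15 (chr4:156200819-156201068, minus strand): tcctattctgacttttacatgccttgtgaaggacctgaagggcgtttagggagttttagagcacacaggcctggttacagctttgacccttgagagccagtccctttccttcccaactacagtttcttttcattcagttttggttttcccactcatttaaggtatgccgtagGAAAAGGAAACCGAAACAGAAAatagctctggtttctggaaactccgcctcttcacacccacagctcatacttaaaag
Ly6c2 (chr15:75111972-75112221, minus strand): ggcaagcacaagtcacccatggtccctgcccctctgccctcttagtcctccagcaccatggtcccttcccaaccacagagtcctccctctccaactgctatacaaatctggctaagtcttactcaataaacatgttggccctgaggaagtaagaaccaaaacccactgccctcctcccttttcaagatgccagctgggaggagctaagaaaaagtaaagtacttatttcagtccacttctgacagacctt
Rsad2 (chr12:26456553-26456582, minus strand): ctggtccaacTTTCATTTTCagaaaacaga
Cxcl10 (chr5:92349083-92349112, minus strand): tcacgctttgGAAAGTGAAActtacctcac
Trim30a (chr7:104465210-104465239, minus strand): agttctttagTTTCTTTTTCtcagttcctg
Ifit1 (chr19:34640784-34640813, plus strand): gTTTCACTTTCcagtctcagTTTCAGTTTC
Phf11b (chr14:59341361-59341390, minus strand): cacatttagaGAAAAAGAAActagaaacta
Ifit3 (chr19:34583397-34583426, plus strand): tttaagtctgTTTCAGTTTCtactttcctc
Ifi205 (chr1:174031870-174031899, minus strand): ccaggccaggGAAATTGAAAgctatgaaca
In Isg15 the capitals cover 3 overlapping matches, the farthest starting 78 bases and the nearest 66 bases before the annotated start. None of the 4 genes of the score had a match in its window.

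MHC class II genes were higher in members as a block. All 6 that passed the filter were at least 2-fold higher in members of both libraries, with median log2 ratios of 2.16 and 1.46, and the same count was reached against depth-drawn cells. Cd74, the invariant chain that guards the peptide groove, was at 9395 CPM in Fcmr+/+ members against 2172 and at 8426 against 3109 in Fcmr-/- (2.11 and 1.44). H2-Ab1, a chain of the class II molecule I-A, was at 3408 against 725 CPM and at 3039 against 1043 (2.23 and 1.54). The peptide-loading chain H2-DMa was at 410 against 114 CPM and at 380 against 181 (1.83 and 1.07). The level of these genes in members was close to equal between the genotypes (median log2 ratio of Fcmr-/- to Fcmr+/+, -0.16), while in the remaining cells it was higher in Fcmr-/- (0.52). MHC class I genes were also positive in both libraries for all 16 that passed, with medians of 0.83 and 0.62. The medians over all genes tested were -0.10 and -0.12. Of the 16, 0 reached 2-fold in both libraries, and at most 2 did under the alternatives.

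High levels of interferon and of class II genes met in a minority of members, though in a larger share of them than of the remaining cells. Taking the top 5% of all cells for each list, 22.5% of Fcmr+/+ members and 38.6% of Fcmr-/- members were high for type I interferon, against 2.22% and 4.52% of the remaining cells. For class II the shares were 30.5% and 21.0%, against 4.07% and 3.96%. In Fcmr+/+, 32 members were high for interferon only, 49 for class II only, 16 for both (7.51%) and 116 for neither (54.5%). In Fcmr-/- the corresponding numbers were 160, 71, 35 (6.93%) and 239 (47.3%). Of the remaining cells, 0.130% and 0.294% were high for both, and 93.8% and 91.8% for neither. Each list alone was high in a larger share of members, so their joint share would be larger even if the lists were unrelated. No link between the lists is read from it. Across members the shares of the lists had a Spearman correlation of 0.08 (213 cells) and -0.07 (505 cells). Across remaining cells it was 0.33 (6139 cells) and 0.45 (7494 cells). In the remaining cells the score was itself correlated with the interferon list (0.47 and 0.54) and the class II list (0.57 and 0.43). Selection on the score can lower the correlation among members, so nothing is read from the difference. These are descriptions over cells of 1 library each, whose shares have the total UMIs of a cell in common.

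Members were also described by the gene of the score with the most UMIs in the cell. The rule used these values, so the groups are given with no test and nothing is read from them. In members led by Plac8 the type I interferon list stood at 15705 CPM in Fcmr+/+ and 20064 in Fcmr-/-, at 13539 and 18900 in members led by Ly6c2, at 11663 and 11966 in those led by Ccr2, and at 5719 and 11164 in those led by Chil3. The class II list stood at 22576 and 20557 CPM in members led by Plac8, at 21493 and 14345 in those led by Ly6c2, at 27934 and 21107 in those led by Ccr2, and at 10852 and 9477 in those led by Chil3. The Chil3 groups held 31 and 37 cells, and the Ccr2 groups 22 and 19.

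**Figure D2:**
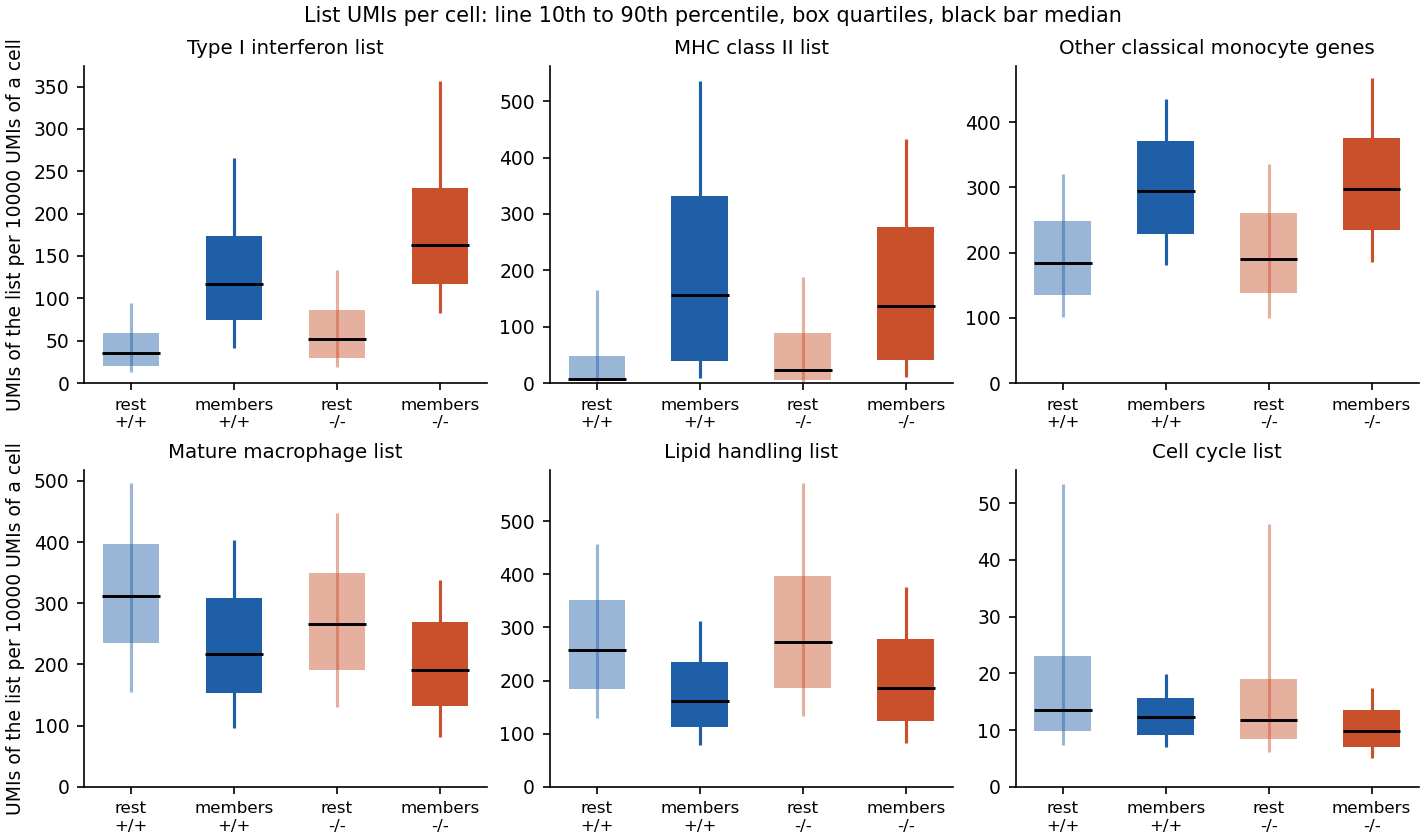
UMIs of 6 gene lists per 10000 UMIs of a cell, in remaining cells (pale) and members (dark) of Fcmr+/+ (blue) and Fcmr-/- (orange); lines run from the 10th to the 90th percentile, boxes span the quartiles and black bars are medians. Most members lay above the median of the remaining cells for the type I interferon list (93.0% in Fcmr+/+, 97.8% in Fcmr-/-) and below it for the lipid handling list, with wide overlap of the groups.

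Genes of mature macrophages went in both directions. Of 30 genes, 4 were at least 2-fold lower in both libraries (Cd63, Cd81, Pf4 and Gpnmb), 3 were at least 2-fold higher (Fcgr1, Tmem176a and Tmem176b), and 10 were above 0 in both libraries, with medians of -0.42 and -0.37. With Plac8 left out of the score, 2 were past 2-fold lower. Gpnmb, a glycoprotein of lysosome-rich macrophages, was at 187 CPM in Fcmr+/+ members against 951 and at 294 against 1033 in Fcmr-/- (-2.34 and -1.81). The mannose receptor gene Mrc1 was at 480 against 914 CPM and at 318 against 639 (-0.93 and -1.01), and the complement gene C1qa at 1342 against 2276 and 1288 against 2312 (-0.76 and -0.84). Apoe, the apolipoprotein of macrophages, remained among the abundant transcripts of members at 7712 and 4809 CPM.

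Lipid handling and lysosomal genes were on the lower side. Of 17 lipid genes, 5 were at least 2-fold lower in members of both libraries and 0 higher (medians -0.96 and -0.49), and of 20 lysosomal genes, 4 were lower and 0 higher (-0.65 and -0.44). With Plac8 left out of the score, 3 lipid genes and 1 lysosomal gene were past 2-fold lower. The scavenger receptor and fatty acid transporter gene Cd36 was at 69.0 CPM in Fcmr+/+ members against 504 and at 199 against 551 in Fcmr-/- (-2.85 and -1.47). The fatty acid carrier gene Fabp4 was at 85.2 against 538 CPM and at 106 against 424 (-2.64 and -1.99). Ctsd, the aspartic protease cathepsin D, was at 1215 against 4066 CPM and at 1579 against 3680 (-1.74 and -1.22). Hypoxia and glycolysis genes differed less, with 0 of 22 past 2-fold in both libraries and medians of 0.13 and 0.38.

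The cell cycle list summed to 1294 CPM in Fcmr+/+ members against 2691 in the remaining cells, and to 1154 against 2474 in Fcmr-/-. Per cell the medians lay close together, at 12.4 against 13.6 and 9.84 against 11.7 UMIs per 10000, while the 90th percentiles were 19.9 against 53.5 and 17.4 against 46.3. Of 20 genes, 17 were at least 2-fold lower in members of both libraries, with medians of -3.18 and -2.37. Several of them passed the filter on low values through the remaining cells, such as the cyclin gene Ccnb1 at 1.84 and 4.68 CPM in members against 27.2 and 24.4. With a mean of at least 50 CPM required, 5 genes were left, of which 2 were past 2-fold lower, and the medians were -0.96 and -1.03. Mki67, a marker of dividing cells, had 13 UMIs in Fcmr+/+ members (5.98 CPM, against 83.5 in the remaining cells) and 34 UMIs in Fcmr-/- members (7.23 CPM, against 67.1), giving log2 ratios of -3.60 and -3.05. Top2a, a topoisomerase of replicating cells, was at 5.52 against 66.7 CPM and at 5.11 against 74.7 (-3.38 and -3.63). Against remaining cells drawn to the depth of the members, 9 of 15 genes were past 2-fold lower with medians of -1.50 and -1.37. Outside the cell cycle, the growth factor gene Igf1 (27.6 against 326 CPM, and 32.8 against 242) and the adhesion gene Cadm1 (2.30 against 47.4, and 5.53 against 56.5) were among the 15 lowest genes.

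Traffic and inflammation genes gave a mixed picture. Of 21 adhesion and migration genes, 2 were at least 2-fold higher in members of both libraries, among them Itgal, which encodes a chain of the integrin LFA-1 (1.97 and 1.12). Of 10 chemoattractant receptor genes, Fpr2 and Ltb4r1 were higher and S1pr1 lower. Ltb4r1, the leukotriene B4 receptor, was at 129 against 27.3 CPM in Fcmr+/+ and at 111 against 34.2 in Fcmr-/- (2.20 and 1.67). Of 17 chemokine genes, Ccl5 and Cxcl10 were higher and Ccl8 and Pf4 lower. Of 18 inflammatory genes, Il1b and Thbs1 were higher, and Il1b, which encodes interleukin-1β, was at 4370 against 1598 CPM and at 4355 against 1859 (1.45 and 1.23). Of 24 transcription factor genes of the monocyte and macrophage lineage, Irf7 and Stat2 were past 2-fold higher and Bhlhe41 past 2-fold lower. Irf7 and Stat2 were already counted above in the type I interferon list. Over all genes tested, 2.51% were past 2-fold higher in members of both libraries and 2.71% past 2-fold lower.

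The type I interferon list was lower in each successive bin of the rank of a cell. The interferon list stood at 19024 CPM in Fcmr+/+ cells of the top 1% of ranks, at 12358 in the next 4%, at 11190 between ranks of 5% and 10%, and at 3467 in the lower 50%. In Fcmr-/- the values were 23522, 17851, 13533 and 4554 CPM. Hp was at 546 CPM in the top 1% and 7.40 in the lower 50% of Fcmr+/+. The median UMIs per cell also differed over these ranks, from 8242 in the top 1% to 20108 in the lower 50% of Fcmr+/+, and their part in these differences was not tested. Over all 6 bins and in both libraries, the monocyte and type II interferon lists were also lower at each step, and the macrophage, lysosome and lipid lists higher. The monocyte list went from 31650 to 17683 CPM in Fcmr+/+ and from 35964 to 17391 in Fcmr-/-, and the macrophage list from 21228 to 34173 and from 19291 to 30602. The monocyte list shares Ifitm3 and Ms4a4c with the type I interferon list. Ifitm3 was at 4130 CPM in Fcmr+/+ members against 1238 in the remaining cells, and at 4989 against 1687 in Fcmr-/-. The part of these shared genes in the order of the monocyte list was not tested. The MHC class II list in Fcmr+/+ was lower and the cell cycle list in Fcmr-/- higher at each step. Each broke the order in the other library, where the MHC class II list in Fcmr-/- stood at 16858 CPM in the top 1%, 18676 in the next 4% and 15335 between 5% and 10%, and the cell cycle list in Fcmr+/+ at 1473, 1256 and 1410 CPM. A list of melanoma genes was also higher at each step, from 135 to 1290 CPM in Fcmr+/+ and from 345 to 1539 in Fcmr-/-. Its most abundant gene was Gpnmb, which the macrophage list holds as well and which supplied 187 of the list's 249 CPM in Fcmr+/+ members and 294 of 404 in Fcmr-/- members. The melanoma genes Pmel and Dct of this list also passed the filter, and the part of tumor cell RNA in these levels was not tested.

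**Figure D3:**
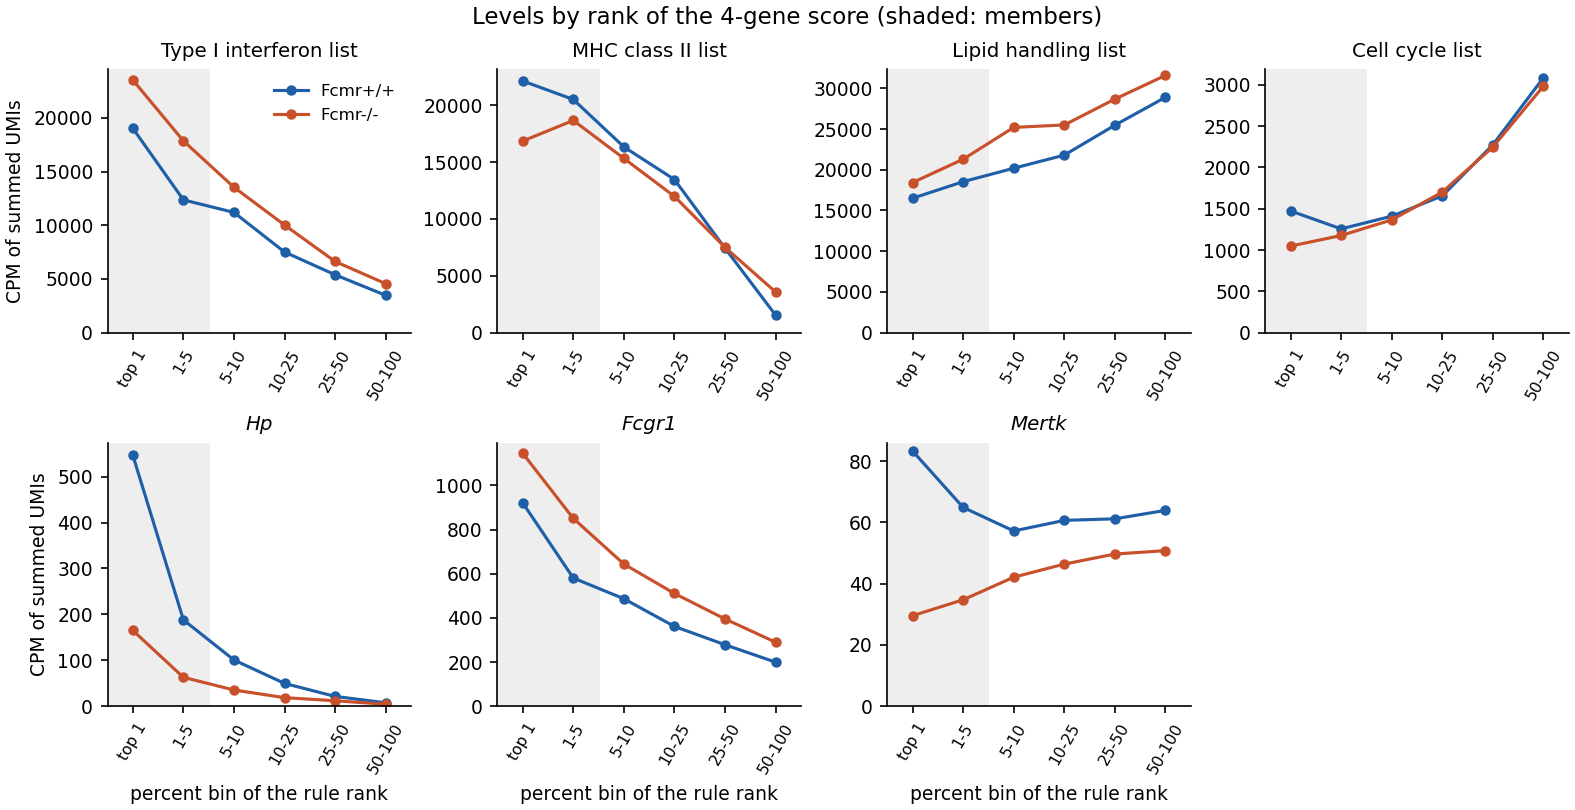
CPM of summed UMIs of 4 gene lists and 3 genes in 6 bins of the rank of cells by the 4-gene score, from the top 1% to the lower 50%, for Fcmr+/+ (blue) and Fcmr-/- (orange); the shaded bins are the members. Type I interferon levels were lower in each successive bin, from 19024 to 3467 CPM in Fcmr+/+ and from 23522 to 4554 CPM in Fcmr-/-.

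Markers of other cell types were examined as whole lists and, to find single cells of another type, as shorter sets of defining genes. For T and NK cells the set was both lists without Ccl5, which myeloid cells also express. Cells with 3 or more UMIs of this set made up 2 of 213 Fcmr+/+ members (0.939%) and 20 of 505 Fcmr-/- members (3.96%), against 1.03% and 1.89% of the remaining cells. Members held fewer UMIs per cell, so this floor is harder to reach in them and the shares are not corrected for depth. Summed, the set was at 16.6 CPM in Fcmr+/+ members against 7.73 in the remaining cells, and at 92.6 against 30.2 CPM in Fcmr-/-. In Fcmr-/- those 20 cells held 343 of the 435 UMIs of the set in members, and Cd3d, Cd3e and Cd3g had 0 UMIs in Fcmr+/+ members. The T cell list summed to 4.14 CPM in Fcmr+/+ members against 4.84 in the remaining cells, with Cd2 its most abundant gene in those members, and to 29.4 against 12.4 CPM in Fcmr-/-, with Cd3g the most abundant.

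The NK cell list summed to 182 CPM in Fcmr+/+ members against 33.7, and to 187 against 76.2 in Fcmr-/-. Its 2 genes that passed the filter, Ccl5 and Klrk1, were both at least 2-fold higher in members of both libraries (medians 2.16 and 1.48), and the chemokine gene Ccl5 was the most abundant with 369 and 583 UMIs in members. The defining NK cell genes Ncr1 and Gzma had 0 UMIs in members, Nkg7 had 0 in Fcmr+/+ and 57 in Fcmr-/-, Gzmb had 0 and 79, and the part of NK cells in these values was not tested. Neutrophil genes summed to 65.4 and 98.7 CPM in members against 57.3 and 126 in the remaining cells, with Csf3r the most abundant in Fcmr+/+ members and Mmp8 in Fcmr-/- members.

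The dendritic cell lists hold genes that other phagocytes also express. The list of type 1 conventional dendritic cells, with Irf8 and Naaa the most abundant, summed to 422 CPM in Fcmr+/+ members against 333 and to 463 against 422 in Fcmr-/-. That of type 2 cells, with Sirpa the most abundant, summed to 469 against 675 and to 517 against 668 CPM, and that of migratory cells, with Tmem123 the most abundant, to 150 against 106 and to 125 against 114. The plasmacytoid list, with Bst2 the most abundant, summed to 678 against 432 and to 907 against 549 CPM. The set of defining genes alone (Flt3, Zbtb46, Xcr1, Clec9a, Cd209a, Ccr7, Fscn1 and Siglech) summed to 15.6 CPM in Fcmr+/+ members against 8.12 and to 13.2 against 13.6 in Fcmr-/-, with 2 and 5 members holding 3 or more UMIs of it. Xcr1 and Clec9a had 0 UMIs in members. Siglech, a marker of plasmacytoid dendritic cells, had 8 UMIs in 1 Fcmr+/+ member and 24 UMIs in 2 Fcmr-/- members, against 3 and 2 UMIs in all remaining cells. Without the cells holding 3 or more UMIs of a set of defining T and NK, neutrophil (Ly6g, Csf3r, Cxcr2, Retnlg, Mmp8, Camp and Ngp) or dendritic cell genes, 185 genes were past 2-fold higher and 211 past 2-fold lower in members of both libraries, and Fcmr-/- supplied 68.8% of the members.

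The genotypes were then compared among members. Of 6932 genes, 88 were at least 2-fold higher in Fcmr-/- members (1.27%) and 57 at least 2-fold higher in Fcmr+/+ members (0.822%). Among the remaining cells the numbers were 51 (0.736%) and 15 (0.216%), and 23 genes were on the higher and 10 on the lower side in both. Members summed to 2172519 UMIs in Fcmr+/+ and 4699950 in Fcmr-/-, compared with 126236025 and 119930671 in the remaining cells, so ratios among members carry the larger counting error.

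Irg1, which encodes the enzyme that makes itaconate in activated macrophages, had the largest ratio of the genes with a mean of at least 50 CPM. It was at 17.5 CPM in Fcmr+/+ members and 151 in Fcmr-/- members, a log2 ratio of 3.04, and at 19.1 and 69.8 CPM in the remaining cells (1.82). The protease gene Mmp13 (19.3 against 93.4 CPM, 2.22), the interleukin-7 receptor gene Il7r (60.8 against 218, 1.83) and Il18bp, which encodes a decoy that binds interleukin-18 (31.3 against 105, 1.72), followed the same order. For Ctsk, the protease cathepsin K, the ratio was 1.93 in members (9.21 against 37.9 CPM) and -0.20 in the remaining cells, and for Cd36 it was 1.51 and 0.13. Both genes were lower in members than in remaining cells, and more so in Fcmr+/+.

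On the other side, Cirbp, which encodes a cold-inducible RNA-binding protein, was at 96.7 CPM in Fcmr+/+ members and 25.1 in Fcmr-/- members (-1.90), with -1.46 in the remaining cells. Hp was at 251 and 80.4 CPM (-1.63, with -0.74 in the remaining cells). Mertk was at 68.1 and 33.8 CPM (-0.99, with -0.34). Of the monocyte list beyond the score, 1 of 27 genes was past 2-fold lower in Fcmr-/- members and 0 higher.

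Genes of the type II interferon response were arranged differently by genotype. All 25 that passed the filter were higher in Fcmr-/- than in Fcmr+/+ members by any amount, 5 of them at least 2-fold. Their median log2 ratio was 0.76, compared with 1.14 in the remaining cells. Over all 6932 genes tested, the median ratio among members was -0.002, and 1.27% were at least 2-fold higher. Other lists leaned the same way, with 40 of 42 type I interferon, 16 of 16 MHC class I and 21 of 22 hypoxia and glycolysis genes higher. By contrast, 0 of 6 MHC class II and 1 of 21 ribosomal genes were higher in Fcmr-/- members. Between members and remaining cells, 21 of the 25 were above 0 in both libraries, with medians of 1.26 in Fcmr+/+ and 0.58 in Fcmr-/-. The medians over all genes tested were -0.10 and -0.12. Of the 25, 2 were at least 2-fold higher in both libraries. That count was 0 with a mean of at least 50 CPM required, 1 with Plac8 left out of the score and 5 with each cell thinned to 5000 UMIs. The summed level of all 30 genes of the list was 2440 CPM in Fcmr+/+ members against 1160, and 3885 against 2759 in Fcmr-/-. Cxcl9, a T cell attractant induced by interferon-γ, was at 80.1 CPM in Fcmr+/+ members against 13.3 in their remaining cells, and at 161 in Fcmr-/- members against 187. The guanylate-binding protein gene Gbp2 was at 109 against 19.9 CPM in Fcmr+/+ and at 239 against 135 in Fcmr-/-. Serpina3g, a protease inhibitor gene, was at 35.4 against 2.21 CPM and at 36.0 against 38.5. In Fcmr-/-, Cxcl9 and Serpina3g were thus no higher in members than in remaining cells, while Gbp2 was higher by less than 2-fold (0.82). Over all genes tested, 89 were past 2-fold higher in members of Fcmr+/+ only (1.28%) and 19 in members of Fcmr-/- only (0.274%), of which 12 and 0 belonged to this list. Of the 89, 86 were also above 0 in Fcmr-/-.

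**Figure D4:**
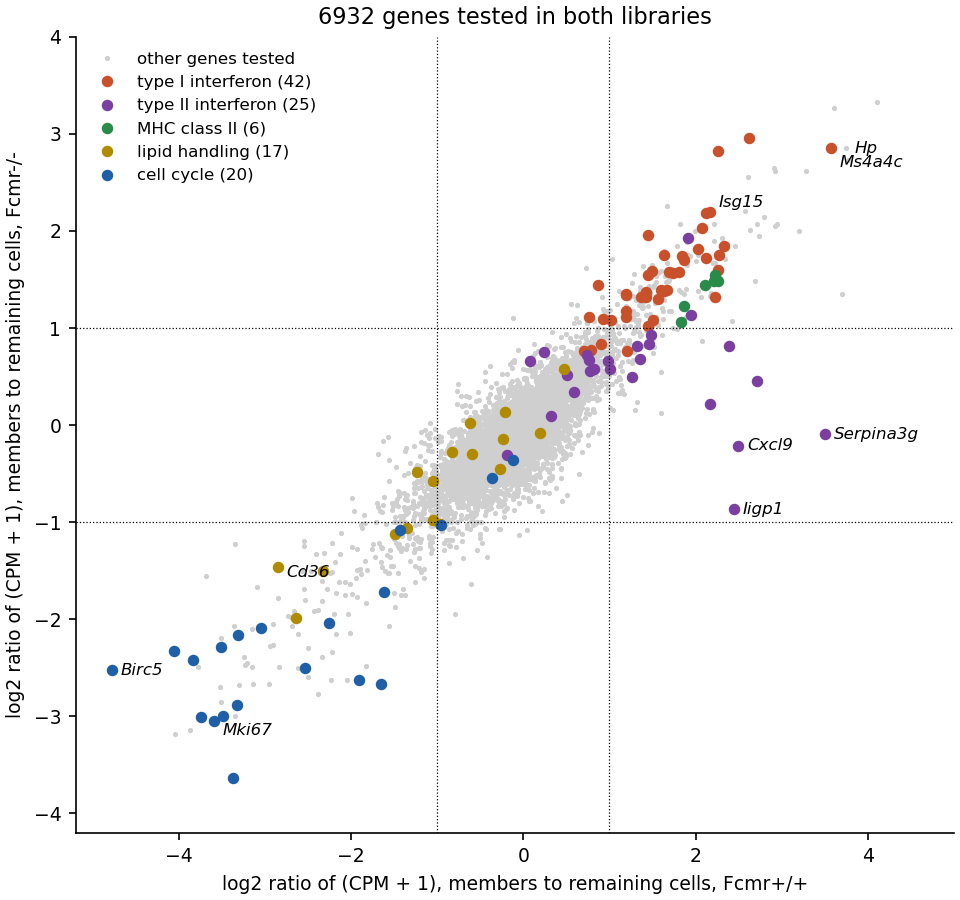
Log2 ratio of (CPM + 1) of members to remaining cells for 6932 genes, Fcmr+/+ on the x axis and Fcmr-/- on the y axis, with 5 gene lists in color; dotted lines mark 2-fold. Type I interferon and MHC class II genes lie high on both axes and cell cycle genes low on both, while Iigp1 (2.45 and -0.87) and Serpina3g (3.50 and -0.09) lie far to the right and below 0 on the y axis.

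**Figure D5:**
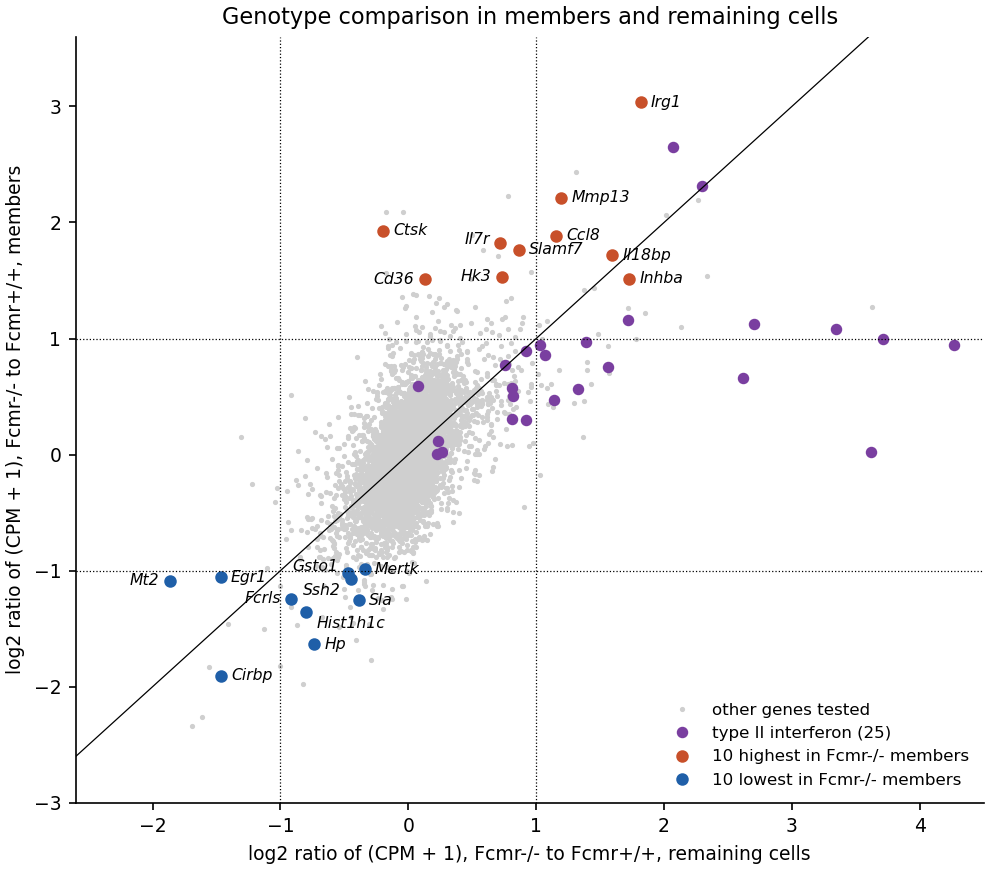
Log2 ratio of (CPM + 1) of Fcmr-/- to Fcmr+/+ cells, remaining cells on the x axis and members on the y axis, with the 10 highest and 10 lowest named genes of members and the type II interferon list in color; dotted lines mark 2-fold and the solid line equal ratios. Irg1 (1.82 and 3.04) lies above the line, and the 25 type II interferon genes have medians of 1.14 in remaining cells and 0.76 in members.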

How the data were processed

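Single-cell RNA was measured in 1 library of each genotype (Fcmr+/+ and Fcmr-/-). The deposited values are unnormalized UMI counts for each gene in each cell. The authors produced them with Cell Ranger on GRCm38 (mm10), and the submitters' processing notes also name Seurat 2.1.0. Counts were read with Python 3.11.15, scipy 1.17.1, pandas 2.3.3 and scanpy 1.11.5. Cells with 200 to 7000 genes and at most 30% UMIs on mitochondrial symbols were kept, and the top 5% by the share of Ly6c2, Plac8, Chil3 and Ccr2 were selected on these same data. The members and gene lists were chosen with earlier results of these data known.

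UMIs were summed over members and remaining cells of each library and scaled to CPM. Ratios were taken as log2 of CPM + 1 for genes with a mean of at least 10 CPM over the 4 groups, and a gene was counted at 2-fold or more. A gene near that minimum that is lower in members can fall below it, so low genes are counted less readily on the lower side. With 1 library per genotype there was no replicate check and no test. The 95% intervals (exact Poisson for levels, Clopper-Pearson for shares) hold counting error alone. The genes named were the 4 score genes, the 15 highest and 15 lowest by the weaker library, the 10 highest and 10 lowest between genotypes with a mean of at least 50 CPM, and examples from the lists by level, size of difference or defining role.

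Scrublet called 0 doublets, which is taken as a failed call. Removing the 5% of cells with the highest scores was tried in its place. Other choices of cells, depth, scaling, pseudocount and filter were tried, 22 in all, of which 2 were added after seeing the data. The listed genes Cebpd, Ighm, Igkc, Iglc2, Mx2, Trac, Trbc1 and Trbc2 were not analysed here. The calculations were checked on simulated data. Results for some genes are not reported here.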

Additional observations from a re-analysis of the deposited data

How the results depend on the processing

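With 1 library per genotype no test was possible. The genotype comparison among members rests on 213 Fcmr+/+ and 505 Fcmr-/- cells. Over 22 alternatives (2 chosen after seeing the data), the 30 genes highest or lowest in members kept their direction and their side of 2-fold in all 1320 gene and library values. These 30 genes had been chosen as the most extreme, so this was largely settled in advance and says nothing about other genes. The 20 genes named between genotypes kept their direction in all 420 values, of which 43 were below 2-fold, 12 of them for Mertk, which was below 2-fold as reported, 12 for Ssh2 and 10 for Gsto1. Where no reason is given, the cause of the shifts below was not tested. The numbers of genes higher and lower in Fcmr-/- members, 88 and 57, became 177 and 150 with the top 2.5% of cells, 57 and 29 with the top 10%, 147 and 117 with each cell thinned to 5000 UMIs, 51 and 25 with a pseudocount of 5 CPM, 29 and 9 with a mean of at least 50 CPM, and 366 and 297 without a filter. The share of members from Fcmr-/-, 70.3%, was 55.7% with the top 5% taken within each library, which fixes it at the library's share of all cells by construction, and 64.1% without Ly6c2 in the score. The 174 genes higher in members became 109 without Plac8 in the score, 89 with a mean of at least 50 CPM and 114 against depth-drawn cells. The 188 lower genes became 53 with a mean of at least 50 CPM, 461 without a filter and 110 against depth-drawn cells. No paired analysis was possible because there was 1 library per genotype.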

Other observations

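Several genes outside the lists also set the members apart and were chosen after their values were seen. Ly6a, which encodes the surface protein Sca-1, was at 464 CPM in Fcmr+/+ members against 34.8 in the remaining cells, and at 1124 against 440.2 in Fcmr-/-. The decoy interleukin-1 receptor gene Il1r2 was at 106 against 10.6 CPM and at 34.3 against 7.79, and Trem1, an activating receptor of myeloid cells, at 62.1 against 12.6 and 39.4 against 9.83. The costimulatory ligand gene Cd86 was at 210 against 83.5 CPM and at 225 against 101. On the lower side, the iron uptake receptor gene Tfrc was at 14.7 against 134 CPM and at 21.5 against 70.3, and the adhesion gene Vcam1 at 18.0 against 98.4 and 15.3 against 110.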
